A study of Mus musculus with 22 samples.

Results

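The 32 genes described here encode proteins of the contracting heart muscle cell, and they were followed in the lungs of mice that had been given OVA or saline and, in part of the animals, particulate matter (PM) collected at a goat farm. The members were taken by symbol from the deposited raw count tables, which gave 32 of 24405 genes, and the rule itself uses no measured value. By role they comprised 4 genes of the thick filament, 4 of the thin filament, 9 of the Z-disc and the other sarcomere framework, 6 of calcium handling, 6 of energy supply and 3 of the natriuretic peptide system. The libraries were made from the right caudal lobes of C57BL/6 mice and fell into 4 groups. The OVA arm held 5 libraries from animals given 3 µg of PM and 6 libraries without PM. The saline arm held 5 libraries given 3 µg of PM and 6 without PM, while the design text speaks of 5 samples in each group. The labels name the arms by sensitization with OVA, the allergen ovalbumin, or with saline, while the protocol text names arms that could also be read as a saline or OVA challenge of OVA-sensitized mice, so they are called the OVA arm and the saline arm. The labels do not state that each library came from a separate animal, so the p-values measure the spread between these libraries. They also give the PM libraries another run of sample numbers than the rest, so that a difference in preparation or sequencing and PM itself cannot be told apart.

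In mice, a sleeve of heart muscle continues from the left atrium along the pulmonary veins into the lung. Its cells carry the atrial forms of the myosin light chains and contract with the atrium. Thick filaments of myosin pull on thin filaments of actin when calcium, released from the sarcoplasmic reticulum, binds to troponin, and titin and the Z-disc proteins hold both filaments in register. Sarcolipin and phospholamban inhibit the pump that returns calcium to the reticulum. Natriuretic peptides are secreted by heart muscle cells, and corin is a protease that activates them. The libraries were made from tissue pieces, and where in the lobe a transcript lay was not measured.

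For some members named often below, the 120 bases before the RefSeq transcription start are given. The promoters shown share no marked motif, since Myh6 and Corin held neither a CArG box nor the letters TATAAA. Shown are the myosin light chain and the actins whose promoters hold a CArG box, the binding motif of serum response factor, together with Myh6, to which all members were related, and Corin, which behaved unlike the rest. The bases were read from RefSeq on GRCm38.p6, and capitals mark a CArG box or the letters TATAAA. RefSeq starts can differ from the GENCODE gene positions given elsewhere. The stretches of Myh6 and Actc1 lie inside their GENCODE genes, chr14:54941921-54966927 and chr2:114047282-114053548.
Myl7 (chr11:5898783-5898902, minus strand): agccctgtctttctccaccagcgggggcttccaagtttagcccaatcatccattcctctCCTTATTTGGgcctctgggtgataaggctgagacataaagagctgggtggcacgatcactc
Actc1 (chr2:114052876-114052995, minus strand): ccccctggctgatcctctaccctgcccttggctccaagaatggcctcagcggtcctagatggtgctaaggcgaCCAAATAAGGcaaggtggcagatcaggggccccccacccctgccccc
Acta1 (chr8:123894776-123894895, minus strand): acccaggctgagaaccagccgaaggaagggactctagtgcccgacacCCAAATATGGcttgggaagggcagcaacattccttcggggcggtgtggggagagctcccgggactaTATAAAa
Myh6 (chr14:54966608-54966727, minus strand): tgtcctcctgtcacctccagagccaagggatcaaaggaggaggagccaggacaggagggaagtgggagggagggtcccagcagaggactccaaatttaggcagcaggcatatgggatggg
Corin (chr5:72504541-72504660, minus strand): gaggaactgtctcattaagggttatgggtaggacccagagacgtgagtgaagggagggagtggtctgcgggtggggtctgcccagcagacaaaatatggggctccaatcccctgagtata
Counted from the start, the box lay at -61 to -52 in Myl7, at -47 to -38 in Actc1 and at -73 to -64 in Acta1. RefSeq promoters were found for 27 of the 32 genes, in 35 windows of 250 bases before a start. On both strands, a CArG box was in 6 of these 35 windows, those of Myl7, Actc1, Acta1, Ldb3 and Nebl, against 1.47% of 32851 promoters of the same length. The MEF2 motif, bound by myocyte enhancer factors, was in 4 windows (Mybpc3, Ttn, Myoz2 and Casq2), against 2.92% of all promoters. The letters CATTCC, bound by TEAD factors, were in 6 windows against 12.6% of all, GATAA in 12 against 22.6%, CAGCTG in 12 against 13.0%, TNAAGTG in 2 against 10.1% and TATAAA in 4 against 12.4%. A match is a description of these letters only.

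Totals ran from 0.302 M to 28.01 M counts per library with a median of 12.5 M, and 3 libraries lay under 2 M: OVA with PM replicates 4 and 5 and OVA without PM replicate 4. In OVA with PM replicate 4, which held 93 counts of the members in all, 1 count was worth 3.31 CPM before scaling, so single values from it are coarse. Levels are given as CPM, counts divided by library size, which was scaled over all libraries by edgeR's trimmed mean of M values (TMM). The expression filter over the 22 libraries passed 30 of the 32 members. The other 2 were Xirp1, a protein of the intercalated disc with 125 counts in all libraries together, and Nppb, brain natriuretic peptide, with 6 counts.

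The label of heart muscle was set against marker genes of other muscle. Of the ventricular markers, Myl2, the ventricular light chain, had 12 counts over all 22 libraries and Irx4 had 0, whereas the atrial chain Myl7 had 10089 counts and the atrial chain Myl4 had 13538. However, 6 of the 8 ventricular markers passed the filter, of which 4 were lower with PM over both arms and 3 rose with Myh6 within groups, among them Myl3, the ventricular essential light chain, with 434 counts. Of the skeletal markers, Myh4 had 0 counts, Myod1 2 and Myog 1. Ucp1, the marker of brown fat, had 11 counts, while 6 of the 9 brown fat markers passed the filter and 3 of them rose with Myh6; that list shares Cox7a1 and Cox8b with the members. Bmp10, a hormone of the right atrium, had 1 count. Of the 22 skeletal markers, 11 passed the filter, of which 4 were lower and 2 higher with PM over both arms. Within groups, 4 of these 11 rose with Myh6 and 1 fell. Atp2a1 and Myl1 were among those that rose, with slopes of 1.18 and 1.09 in log2 units per log2 unit of Myh6. Of all genes tested, 19% were lower and 15.4% higher with PM, and 18.1% rose and 16.4% fell with Myh6. Of the heart transcription factors, Nkx2-5 had 27 counts. Myh6, Myl7, Myl4, Actc1 and Tnnt2 had counts in every library of every group. Several members are read less plainly, since Nebl and the muscle-type oxidase subunits are also made outside heart muscle, and Corin and Cox6a2 did not vary with the rest. The genes Myh6 and Myh7 are near-identical neighbours, as are the actins in sequence, and how the authors' counting treated reads shared between them is not given, so single levels of Myh6, Actc1 and Acta1 carry that uncertainty.

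Per length, Myl7 was the most abundant member, with a mean of 52.6 CPM per kilobase over the 22 libraries. Actc1 (29.4), Cox6a2 (25.6), Tnni3 (21.9) and Myl4 (13.6 CPM per kilobase) followed. Myh6 was at 6.33 CPM per kilobase, and the lowest passing member was Ttn, titin, at 0.0904 CPM per kilobase, the longest transcript of the list. Summed over the 32 genes, the OVA libraries given PM had 143.5, 253.5, 311.7, 165.6 and 177.7 CPM in replicates 1, 2, 4, 5 and 6, and lowest, median and highest values of 106.6, 391.8 and 776.2 CPM were found in the OVA libraries without PM. The saline libraries given PM had 228.2, 357.2, 316.8, 316.4 and 219.6 CPM in replicates 1, 2, 3, 5 and 6, and lowest, median and highest values of 201.2, 436.4 and 851.6 CPM were found in those without PM. The groups without PM spanned the widest ranges, and each overlapped its PM group at the low end. As group means the sums were 210.4 ± 70.1 CPM in OVA with PM (SD, n = 5), 408.0 ± 218.1 CPM in OVA without PM (SD, n = 6), 287.6 ± 60.6 CPM in saline with PM (SD, n = 5) and 502.7 ± 281.1 CPM in saline without PM (SD, n = 6).

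**Figure D1:**
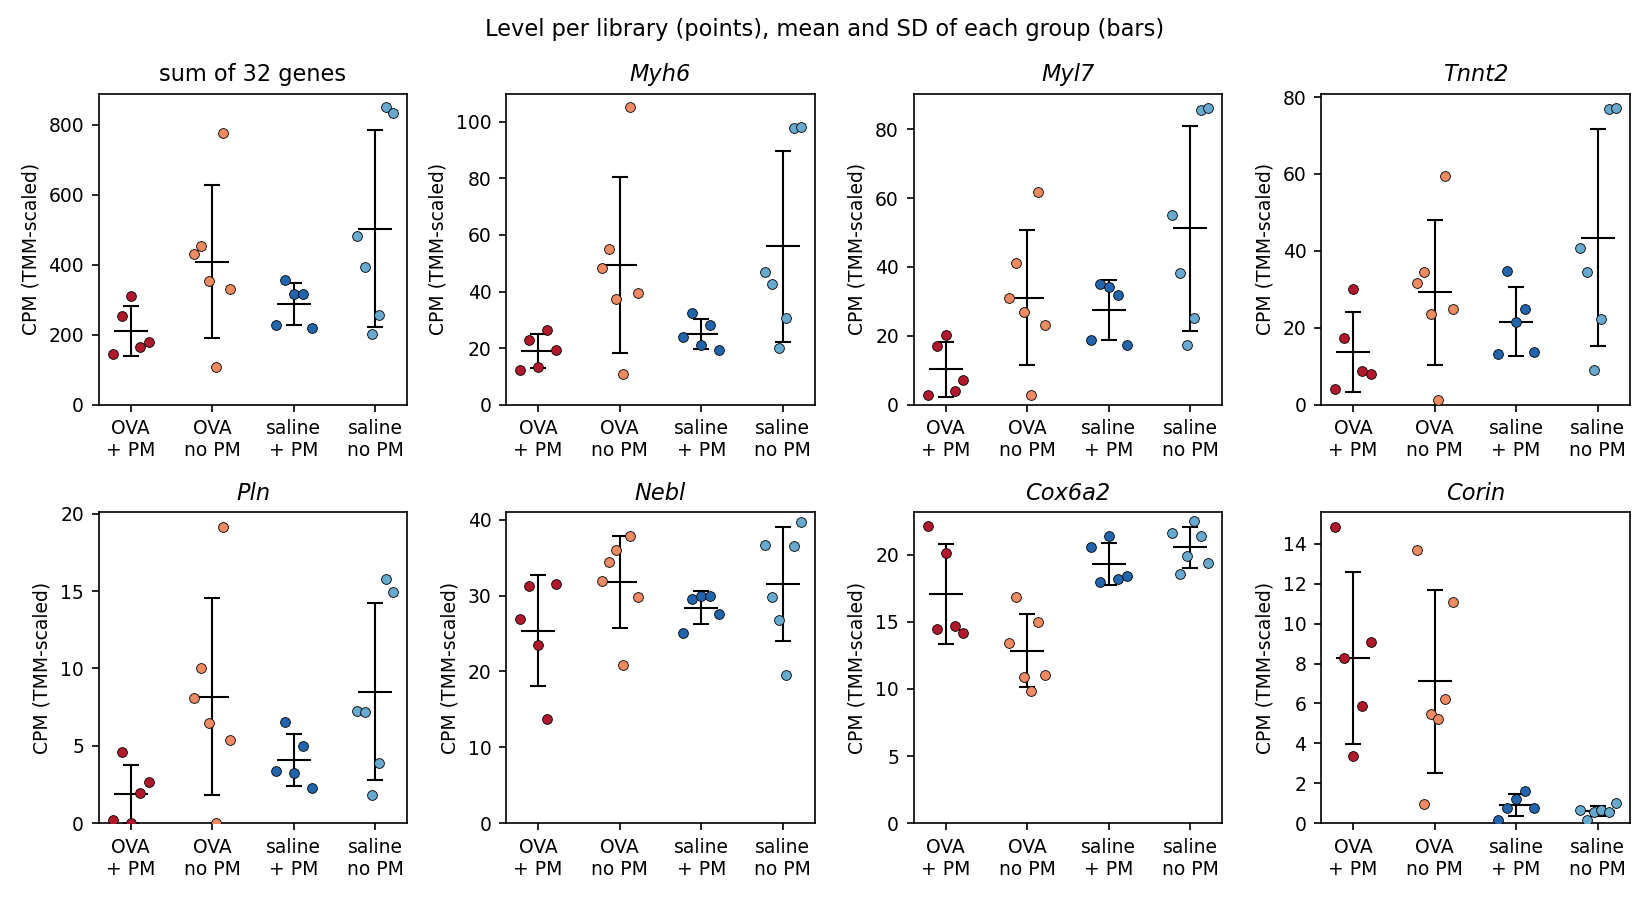
Level of the sum of the 32 genes and of 7 single genes in each library, in CPM on linear axes from 0, with the 4 groups side by side (points, libraries; bars, mean and SD). The sum, Myh6, Myl7, Tnnt2 and Pln spread widely without PM and lie in the lower part of that range with PM, Cox6a2 is lowest in OVA without PM, and Corin is high in the OVA arm, where its lowest library, at 0.944 CPM, lies among the saline libraries.

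The first question was how PM changed these genes. Over both arms, in a fit of all 22 libraries with the arm as covariate, 25 of the 30 members tested were lower with PM and 0 were higher in edgeR's quasi-likelihood F test at a Benjamini-Hochberg adjusted p of 0.05, while 19% of the 14942 genes tested were lower. By role, 4 of 4 thick filament genes, 4 of 4 thin filament genes, 7 of 8 tested framework genes, 6 of 6 calcium genes, 3 of 6 energy genes and 1 of 2 tested genes of the natriuretic system fell. Among the PM libraries alone, Acta1, Smpx, Trdn and Nppa did not pass the expression filter. They entered this fit by way of the libraries without PM, so the filter favoured a fall for them. The median log2 fold change of the members was -1.24, against 0.02 over all genes tested. Changes are given as log2 fold changes with their standard error (SE) and the adjusted p of that test. In a bulk sample, fewer heart muscle cells in the piece and less RNA per cell cannot be told apart. The markers of smooth muscle moved the same way: 11 of 12 were lower with PM, and their summed level ran from 482.7 to 622.3 CPM in OVA with PM, 468.7 to 1379 CPM in OVA without PM, 532.8 to 647.9 CPM in saline with PM and 476.6 to 1219 CPM in saline without PM. Of the 7 markers of mesothelium, the lining of the lung surface, 0 passed, with a median log2 fold change of -0.01 and sums of 497.9 to 664.5 CPM in OVA with PM, 359.4 to 1194 CPM in OVA without PM, 685.0 to 761.0 CPM in saline with PM and 468.0 to 1578 CPM in saline without PM. Their part in the members' result was not tested.

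Among the thick filament genes, Myh6, the alpha myosin heavy chain of the heart (in the adult mouse the main heavy chain of atria and ventricles; ENSMUSG00000040752.16; GRCm38 chr14:54941921-54966927, minus strand), had 12.3, 23.01, 13.4, 26.5 and 19.3 CPM in OVA with PM and lowest, median and highest values of 11.01, 43.8 and 105.3 CPM in OVA without PM. It had 24.1, 32.3, 21.1, 28.3 and 19.2 CPM in saline with PM and lowest, median and highest values of 20.1, 44.8 and 98.05 CPM in saline without PM. All 5 PM libraries of each arm lay below the median of that arm without PM, but the ranges overlapped, since the lowest library without PM lay among or below those given PM. Over both arms Myh6 fell with PM (-1.31 ± 0.27 SE, adjusted p = 0.00109). Myl7, the atrial regulatory light chain, had 2.79, 17.03, 20.1, 3.92 and 7.26 CPM in OVA with PM and lowest, median and highest values of 2.90, 28.9 and 61.9 CPM in OVA without PM. Its saline libraries had 18.7, 35.2, 34.1, 31.8 and 17.3 CPM with PM and lowest, median and highest values of 17.3, 46.6 and 86.2 CPM without PM. Replicates 1, 5 and 6 of OVA with PM were low, and 4 of 5 OVA libraries given PM were below every saline library given PM. Myl7 fell with PM over both arms (-1.34 ± 0.33 SE, adjusted p = 0.00405). Myl4, the atrial essential light chain, had 11.2, 32.3, 46.9, 29.4 and 16.4 CPM in OVA with PM and lowest, median and highest values of 8.11, 43.2 and 85.9 CPM in OVA without PM. In saline, Myl4 had 30.2, 50.5, 46.3, 44.6 and 28.4 CPM with PM and lowest, median and highest values of 24.4, 51.6 and 106.0 CPM without PM. The groups overlapped, and it also fell (-0.86 ± 0.28 SE, adjusted p = 0.0192). Mybpc3, cardiac myosin-binding protein C, fell least of the 4, by 0.65 on the log2 scale, and did not pass without saline without PM replicate 5 or without OVA with PM replicate 1.

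Of the thin filament genes, Actc1, cardiac actin, had 23.5, 31.7, 43.6, 11.8 and 27.4 CPM in OVA with PM and lowest, median and highest values of 15.1, 53.7 and 100.5 CPM in OVA without PM. In saline it had 19.4, 26.2, 32.7, 32.9 and 23.9 CPM with PM and lowest, median and highest values of 18.97, 49.6 and 102.3 CPM without PM. All 10 PM libraries lay below the median of their arm without PM. Its change over both arms was -1.14 ± 0.26 SE, adjusted p = 0.00238. Tnnt2, cardiac troponin T, had 4.07, 17.4, 30.2, 8.82 and 7.89 CPM in OVA with PM and lowest, median and highest values of 1.16, 28.3 and 59.5 CPM in OVA without PM. In saline, Tnnt2 had 13.2, 34.8, 21.4, 24.9 and 13.7 CPM with PM and lowest, median and highest values of 8.94, 37.6 and 77.1 CPM without PM. Replicate 4 of OVA with PM, the shallowest library, was the highest of its group for Tnnt2, and the lowest library of all was an OVA library without PM. Tnnt2 fell over both arms (-1.29 ± 0.35 SE, adjusted p = 0.0065), as did Tnni3, the cardiac inhibitory troponin, by 1.08 ± 0.31 and Acta1, an actin of skeletal and heart muscle with 586 counts in all, by 1.72 ± 0.48 on the log2 scale (± SE).

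In the framework, Ttn, the elastic protein that spans the sarcomere, had 1.43, 4.38, 0, 1.96 and 2.65 CPM in OVA with PM and lowest, median and highest values of 4.05, 10.9 and 31.4 CPM in OVA without PM. In the saline arm Ttn had 4.71, 9.77, 6.24, 6.58 and 3.44 CPM with PM and lowest, median and highest values of 5.29, 10.4 and 30.7 CPM without PM. In 4 of 5 OVA libraries given PM it was below every OVA library without PM. Among them was replicate 4 at 0 counts, where 3 counts would be 9.92 CPM. Ttn fell over both arms (-1.77 ± 0.35 SE, adjusted p = 0.000786). Ldb3, a Z-disc protein also called ZASP, fell by 1.54 ± 0.31, Myoz2, which binds calcineurin at the Z-disc, by 1.51 ± 0.36, Csrp3, the muscle LIM protein, by 1.46 ± 0.32, Smpx, a small muscle protein, by 1.25 ± 0.35, Tcap, the cap of titin, by 1.07 ± 0.29, and Actn2, the actin crosslinker of the Z-disc, by 1.03 ± 0.25 (log2, ± SE). Nebl, nebulette, was the framework gene that did not pass. It had 26.9, 31.3, 23.5, 13.7 and 31.5 CPM in OVA with PM and lowest, median and highest values of 20.9, 33.2 and 37.8 CPM in OVA without PM. In saline, Nebl had 25.01, 29.6, 29.99, 29.9 and 27.6 CPM with PM and lowest, median and highest values of 19.6, 33.2 and 39.7 CPM without PM. All groups overlapped, and its log2 fold change was -0.21 ± 0.11 SE, adjusted p = 0.138. Xirp1, which was not tested, had 2 counts over the 5 OVA libraries given PM, 37 over the 6 OVA libraries without PM, 7 over the 5 saline libraries given PM and 79 over the 6 saline libraries without PM.

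Among the calcium genes, Sln, sarcolipin, had 0.905, 1.99, 3.35, 0 and 0.947 CPM in OVA with PM and lowest, median and highest values of 0.579, 5.09 and 8.78 CPM in OVA without PM. The saline libraries had 2.96, 5.37, 6.53, 3.90 and 4.02 CPM with PM and lowest, median and highest values of 1.64, 6.09 and 11.3 CPM without PM. The saline libraries given PM overlapped those without PM, while 4 of 5 OVA libraries given PM were below every saline library given PM. Sln fell over both arms (-1.15 ± 0.31 SE, adjusted p = 0.00646). Pln, phospholamban, had 0.226, 4.58, 0, 1.96 and 2.65 CPM in OVA with PM and lowest, median and highest values of 0, 7.26 and 19.1 CPM in OVA without PM. In saline, Pln had 3.36, 6.55, 3.27, 4.97 and 2.29 CPM with PM and lowest, median and highest values of 1.82, 7.22 and 15.8 CPM without PM. All 10 PM libraries were below the median of their arm without PM, and 1 library was at 0 in each OVA group. Pln fell by 1.44 ± 0.38 over both arms. Hrc, a calcium-binding protein of the reticulum, fell by 1.54 ± 0.35, Casq2, the calcium store calsequestrin, by 1.23 ± 0.38, Ryr2, the release channel, by 1.08 ± 0.29, and Trdn, which anchors calsequestrin to that channel, by 1.04 ± 0.34 (log2, ± SE). Trdn did not pass without saline with PM replicate 5, at an adjusted p of 0.0509 in edgeR's test.

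The energy genes divided. Mb, myoglobin, the oxygen store, had 0.754, 6.28, 3.35, 0.98 and 1.90 CPM in OVA with PM and lowest, median and highest values of 0, 10.2 and 24.1 CPM in OVA without PM. In saline, Mb had 4.30, 11.1, 5.05, 8.83 and 3.77 CPM with PM and lowest, median and highest values of 6.53, 12.4 and 31.6 CPM without PM. All 10 PM libraries were below the median of their arm without PM, and 3 of the 5 saline ones were below every saline library without PM. Mb fell over both arms (-1.66 ± 0.36 SE, adjusted p = 0.00156), with the creatine kinases Ckm, by 1.65 ± 0.36, and Ckmt2, by 1.46 ± 0.37 (log2, ± SE). The 3 muscle-type subunits of cytochrome c oxidase did not pass. Cox6a2 had 22.1, 14.4, 20.1, 14.7 and 14.2 CPM in OVA with PM and lowest, median and highest values of 9.85, 12.2 and 16.9 CPM in OVA without PM. Its saline libraries had 20.6, 17.98, 21.4, 18.2 and 18.4 CPM with PM and lowest, median and highest values of 18.5, 20.6 and 22.5 CPM without PM. Over libraries of at least 2 M counts its highest level was 2.07 times its lowest, against 8.56 times for Myh6. In addition, 5 of 5 OVA libraries given PM were above the median of OVA without PM. Over both arms its log2 fold change with PM was 0.11 ± 0.10 SE, adjusted p = 0.439. Cox7a1 had -0.13 ± 0.15 SE, adjusted p = 0.533 and Cox8b -0.38 ± 0.16 SE, adjusted p = 0.0689.

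In the natriuretic system, Nppa, the precursor of atrial natriuretic peptide, had 0.302, 0.598, 0, 0.98 and 0.126 CPM in OVA with PM and lowest, median and highest values of 0.579, 1.40 and 7.32 CPM in OVA without PM. In saline, Nppa had 0.269, 1.27, 0, 0.286 and 0.082 CPM with PM and lowest, median and highest values of 0, 1.10 and 2.42 CPM without PM. Levels were low throughout, and 1 library was at 0 in each group but OVA without PM. Nppa fell with PM over both arms (-2.23 ± 0.52 SE, adjusted p = 0.00256), the largest fall of the tested members. It entered the test by way of the libraries without PM, which favours a fall. Corin, the activating protease (GRCm38 chr5:72300025-72504473, minus strand), did not pass for PM (0.53 ± 0.35 SE, adjusted p = 0.245).

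**Figure D2:**
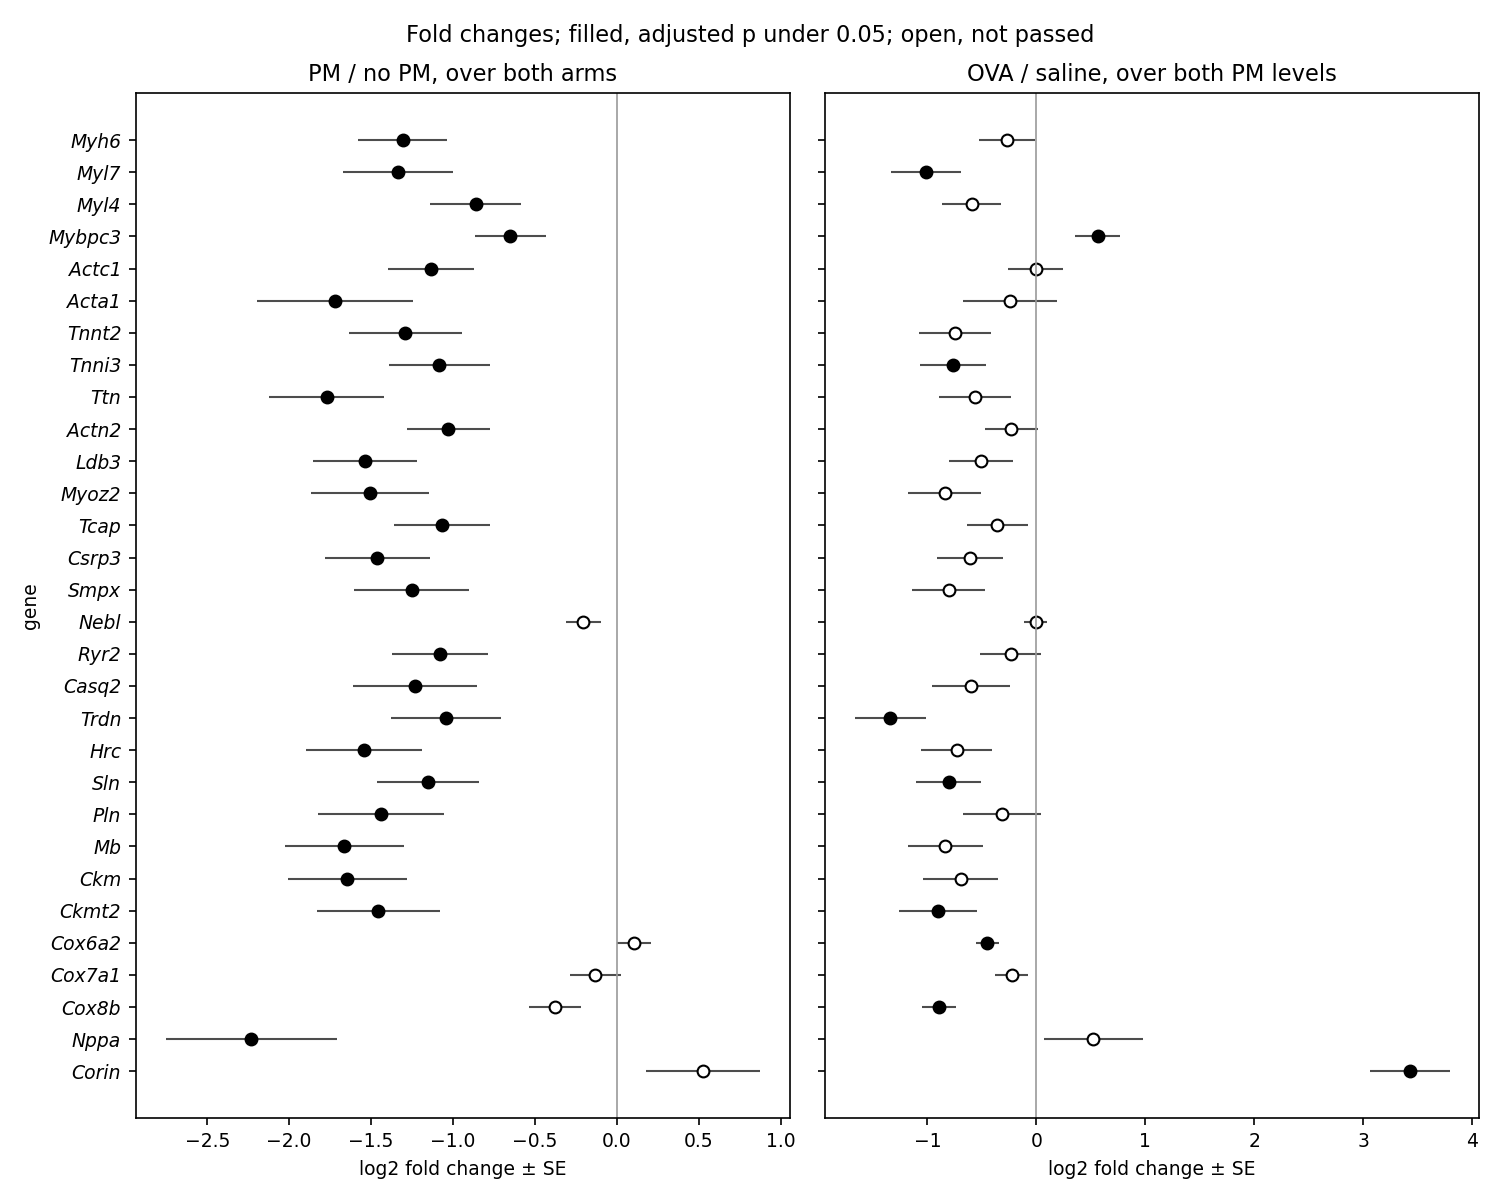
Log2 fold change of each of the 30 tested members, with bars of 1 SE, for PM against no PM over both arms (left) and OVA against saline over both PM levels (right); filled points passed an adjusted p of 0.05. On the left 25 members lie below 0 and passed, while Nebl, the 3 oxidase subunits and Corin are open, and on the right Corin stands apart at 3.43.

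Within each arm fewer members passed, and the count rested on single libraries. In the OVA arm, 14 of 29 tested members were lower with PM and 0 higher, with 6.87% of all genes tested lower and a member median of -1.57. These were Myh6, Myl7, Actc1, Tnnt2, Ttn, Actn2, Ldb3, Myoz2, Tcap, Csrp3, Sln, Mb, Ckm and Nppa, led by Nppa (-2.81 ± 0.72 SE, adjusted p = 0.0296), Ttn (-2.37 ± 0.47 SE, adjusted p = 0.0155) and Ckm (-2.17 ± 0.52 SE, adjusted p = 0.0243). Nppa, with 13 counts over the 5 OVA libraries given PM, entered by way of those without PM. The count was 0 without OVA with PM replicate 1 or without replicate 6, at which 0 genes of the whole table passed as well. It was 8 without OVA with PM replicate 2, 9 without its replicate 5, and 5, 7 and 8 without OVA without PM replicates 1, 3 and 5. The number of all genes passing is not given for these fits. Over all fits leaving out a library of this arm, it ran from 0 to 3396. The count of members was 23 without OVA without PM replicate 4, one of the shallow libraries, at which 3396 genes of the whole table passed. Without the 3 shallow libraries 22 of 30 members were lower, with 13.3% of all genes lower, whereas a length and GC offset left 3, with a member median of -1.63 and 0.86% of all genes lower. In the saline arm, 5 of 29 were lower and 0 higher, with 7.37% of all genes lower and a member median of -1.12. They were Hrc (-1.57 ± 0.48 SE, adjusted p = 0.0466), Ttn (-1.43 ± 0.45 SE, adjusted p = 0.0486), Mb (-1.40 ± 0.41 SE, adjusted p = 0.0414), Myh6 (-1.19 ± 0.34 SE, adjusted p = 0.0387) and Csrp3 (-1.18 ± 0.37 SE, adjusted p = 0.0481). That count was 0 without any one of the 5 saline libraries given PM or of saline without PM replicates 1, 2, 5 and 6. It was 22 without saline without PM replicate 3 and 14 without its replicate 4. Over the fits that left out a library, 490 to 4112 genes of the whole table passed, the most without saline without PM replicate 3. DESeq2 called 3 members in each arm. The share of all genes that DESeq2 called is not given here, so these counts cannot be set against it. In the authors' deposited tables, 8 of the 25 members given an adjusted p-value were lower with PM in the OVA arm and 4 of 28 in the saline arm, with 0 higher in either. The share of all genes in those tables was not counted, so these counts cannot be set against it.

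The difference of the PM effect between the arms was tested as an interaction. None of the 30 members passed in edgeR's test, while 2 had an unadjusted p under 0.05. Of all genes, 14 passed, 0.0937% of those tested, and 571 genes had an unadjusted p under 0.05. The 2 members were Sln, with a log2 difference of -1.46 ± 0.60 SE, adjusted p = 1, and Cox6a2, with 0.45 ± 0.19 SE, adjusted p = 1, in OVA minus saline. Myh6 differed by -0.26 ± 0.55 (± SE), an error that leaves room for a difference of either sign.

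The second question was how the OVA arm differed from the saline arm. Over both PM levels, 2 of 30 were higher in OVA, with 19.4% of all genes tested higher, and 7 were lower, with 19.1% of all genes lower. The share of members lower was thus near that of all genes, and the share higher was below it, so the calls that follow describe single genes. Corin and Mybpc3 were higher, and Myl7, Tnni3, Trdn, Sln, Ckmt2, Cox6a2 and Cox8b were lower. The member median was -0.58 on the log2 scale. Myh6 did not pass (-0.27 ± 0.26 SE, adjusted p = 0.441). Leaving out each of the 22 libraries in turn gave 6 to 17 members passing, while 5146 to 6038 genes of the whole table passed over the same fits. The count of members was 17 without OVA without PM replicate 5 and 16 without saline without PM replicate 3. It was 6 without any one of saline without PM replicates 5 and 6, OVA without PM replicate 6 and OVA with PM replicates 1 and 6, and in each of these fits Sln, Tnni3 and Ckmt2 did not pass. Tnni3 and Ckmt2 each missed the threshold in 13 of the 22 fits, with highest adjusted p of 0.103 and 0.119. Corin, Myl7, Trdn, Cox6a2 and Cox8b passed in all 22.

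Corin had 14.9, 8.27, 3.35, 5.88 and 9.09 CPM in OVA with PM and 0.134, 0.782, 1.19, 1.61 and 0.738 CPM in saline with PM. Without PM, Corin had lowest, median and highest values of 0.944, 5.84 and 13.7 CPM in OVA and lowest, median and highest values of 0.183, 0.604 and 1.01 CPM in saline. With PM all 5 OVA libraries were above every saline library, and without PM 5 of 6 were, the exception being OVA replicate 2 at 0.944 CPM. Corin was higher in OVA over both PM levels (3.43 ± 0.36 SE, adjusted p = 5.25e-08), and its log2 fold change was 3.56 ± 0.58 SE, adjusted p = 0.000465 without PM and 3.31 ± 0.33 SE, adjusted p = 3.31e-06 with PM. The order of its levels over the groups, OVA with PM at 8.29 ± 4.30, OVA without PM at 7.10 ± 4.57, saline with PM at 0.890 ± 0.550 and saline without PM at 0.602 ± 0.265 CPM (SD, n = 5, 6, 5 and 6), had ranges that overlapped within each arm. Mybpc3 was the other member higher in OVA over both PM levels together (0.56 ± 0.21 SE, adjusted p = 0.0328), with 6 of 6 OVA libraries without PM above the median of saline without PM. With PM, however, 3 of 5 OVA libraries were below the median of saline with PM and 2 were above it. At neither PM level alone did Mybpc3 pass edgeR's test (0.73 ± 0.28 SE, adjusted p = 0.0737 without PM and 0.33 ± 0.29 SE, adjusted p = 0.478 with PM). Over both PM levels, Mybpc3 did not pass without any one of saline without PM replicates 1, 2 and 3, OVA without PM replicate 5 and OVA with PM replicate 2. Its log2 fold changes were 0.42 to 0.67, with a highest adjusted p of 0.0840, over the 22 fits that leave out a library.

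Of the members lower in OVA, Cox8b had 1.43, 2.39, 3.35, 3.92 and 1.83 CPM in OVA with PM and 4.97, 4.01, 4.16, 4.36 and 5.25 CPM in saline with PM. Without PM, Cox8b had lowest, median and highest values of 1.80, 3.01 and 4.51 CPM in OVA and lowest, median and highest values of 4.08, 5.02 and 6.34 CPM in saline. With PM the groups did not overlap, and without PM 5 of 6 OVA libraries were below every saline library. Cox8b was lower in OVA over both PM levels (-0.90 ± 0.16 SE, adjusted p = 6.36e-05). Cox6a2 without PM did not overlap between the arms, since all 6 OVA libraries were below the lowest saline library, and it was lower over both PM levels together (-0.45 ± 0.10 SE, adjusted p = 0.00103). With PM, 2 of 5 OVA libraries were above the median of saline with PM, 1 of them above every saline library. With PM alone, Cox6a2 did not pass edgeR's test (-0.18 ± 0.14 SE, adjusted p = 0.4145). Trdn, at 8 counts over the 5 OVA libraries with PM, 54 over the 5 saline libraries with PM, 62 over the 6 OVA libraries without PM and 136 over the 6 saline libraries without PM, was lower (-1.34 ± 0.33 SE, adjusted p = 0.00189). The remaining falls were Myl7 by 1.02 ± 0.32, Ckmt2 by 0.90 ± 0.35, Sln by 0.81 ± 0.30 and Tnni3 by 0.76 ± 0.30 (log2, ± SE).

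The arms were also compared at each PM level, and the difference between the levels is the interaction given above, which no member passed. Without PM, 1 of 30 members was higher, Corin, with 14.4% of all genes higher, and 3 were lower, with 9.27% of all genes lower. Here too the share of members lower was near that of all genes, and the share higher was below it. The 3 were Cox6a2 (-0.62 ± 0.12 SE, adjusted p = 0.00222), Cox8b (-0.70 ± 0.21 SE, adjusted p = 0.0272) and Trdn (-1.07 ± 0.35 SE, adjusted p = 0.0393). Cox8b and Trdn both lost the threshold without any one of saline without PM replicates 1, 5 and 6 and OVA without PM replicates 1, 3 and 6, with log2 fold changes of -0.69 to -0.54 for Cox8b and -1.10 to -0.88 for Trdn. With PM, 26 members were tested, 1 was higher, again Corin, with 13.2% of all genes higher, and 14 were lower, with 9.57% of all genes lower. The largest falls were those of Sln (-1.84 ± 0.32 SE, adjusted p = 0.000449), Myl7 (-1.65 ± 0.36 SE, adjusted p = 0.00301) and Myoz2 (-1.53 ± 0.44 SE, adjusted p = 0.0167), whereas Myh6 did not pass (-0.44 ± 0.19 SE, adjusted p = 0.101) and Actc1 was at -0.02 ± 0.17 (± SE). The count of 15 members was 5 without OVA with PM replicate 1, 8 without its replicate 6 and 9 without saline with PM replicate 5, and it was 8 with DESeq2 and 5 in a fit of all 4 groups. Of all genes, 2259 passed without OVA with PM replicate 1, the fewest of the fits that left out a library, and at most 3483 did. Over the other settings, DESeq2 and the fit of all 4 groups among them, 2598 to 3966 genes passed. In the authors' deposited table for OVA without PM, 2 of 30 members were higher and 3 lower, and the share of all genes there was not counted.

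The third question was how the genes varied together within groups. Myh6 was taken as the index, and each gene's slope on it, in log2 units per log2 unit of Myh6, was fitted over the 22 libraries after the 4 group means had been removed. Of the 29 members tested against Myh6, 27 rose with it and 0 fell, with 18.1% of the 14941 genes tested rising. The median slope of the members was 1.001, against -0.003 over all genes, of which the middle 98% lay between -0.55 and 0.57. A slope of at least 0.8 was found in 61 genes of the table, and 23 of them were members. A slope of 1 means that a gene changed by the same factor as Myh6 from library to library.

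By role, most slopes of the filament and calcium genes were near 1. In the thick filament, Myl7 had a slope of 1.07 ± 0.11 SE, adjusted p = 4.9e-07 and Myl4 0.95 ± 0.08 SE, adjusted p = 3.34e-08, with Mybpc3 lower at 0.59 ± 0.12. In the thin filament, slopes ran from 0.85 in Actc1 to 1.30 in Acta1, with Tnni3 at 1.05 ± 0.10 and Tnnt2 at 1.21 ± 0.11. In the framework Ttn had 1.22 ± 0.08 SE, adjusted p = 7.16e-10, and the other tested genes apart from Nebl were between 0.84 in Actn2 and 1.16 in Myoz2. All 6 calcium genes rose with Myh6, from 0.83 in Trdn to 1.34 in Pln. Mb, Ckm and Ckmt2 had slopes of 1.16, 1.32 and 1.24, and Nppa, the steepest, 1.35 ± 0.25. Nebl at 0.24 ± 0.06, Cox8b at 0.30 ± 0.11 and Cox7a1 at 0.31 ± 0.11 passed with shallow slopes, of which Cox7a1 did not pass without saline without PM replicate 5 or without OVA without PM replicate 5, and Cox8b did not pass without any one of saline without PM replicates 2, 3, 5 and 6, OVA without PM replicate 5 and OVA with PM replicate 1. Cox6a2 at 0.03 ± 0.07 and Corin at -0.08 ± 0.29 did not pass. These 5 are the tested members that did not pass for PM over both arms.

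**Figure D3:**
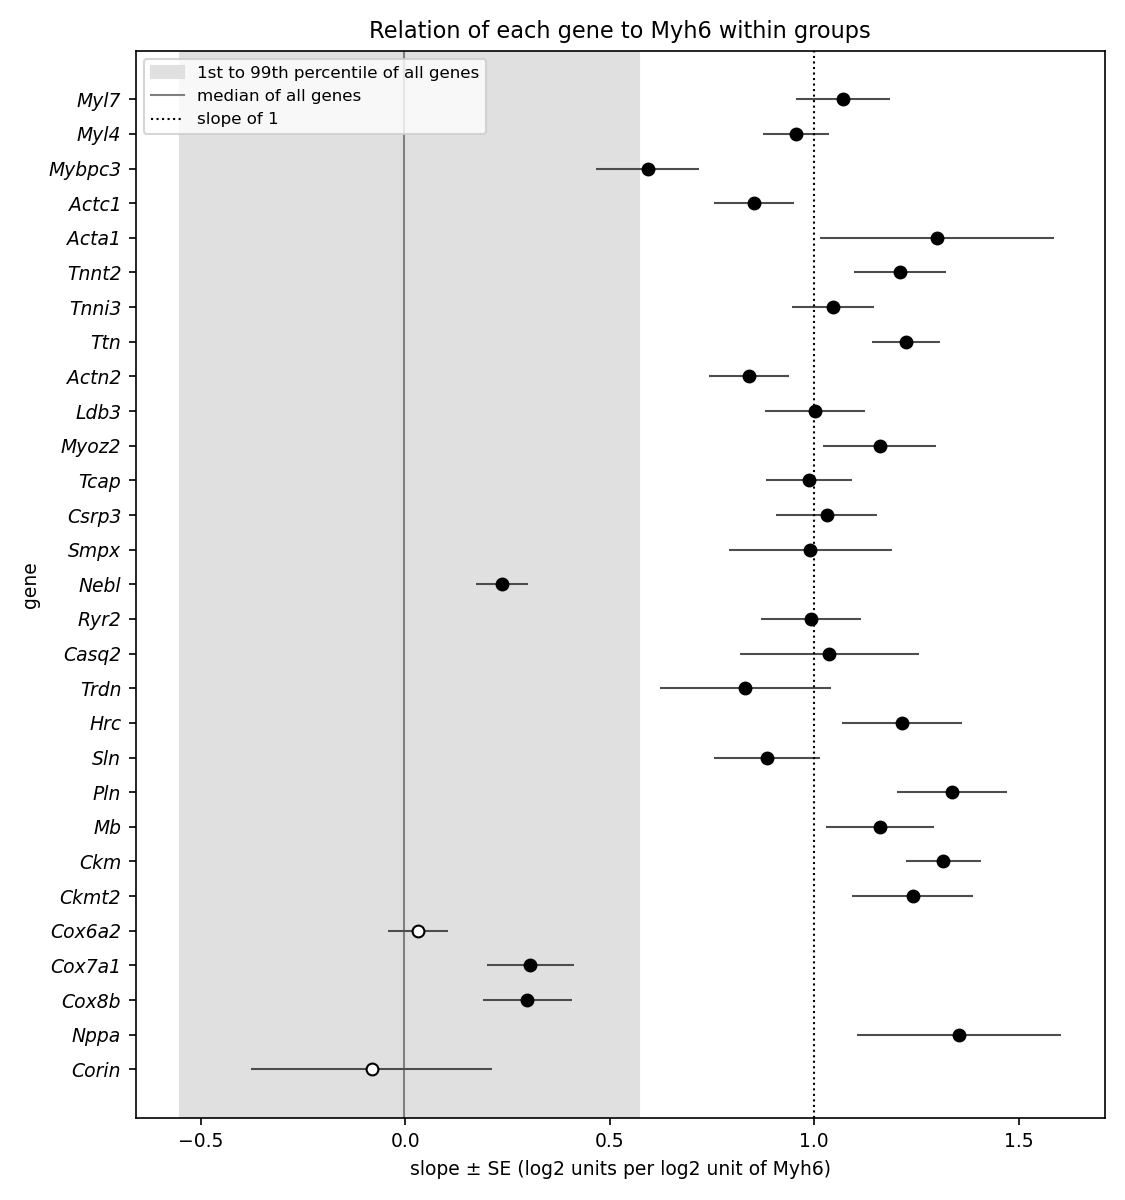
Slope of each of the 29 members on Myh6 within groups, in log2 units per log2 unit of Myh6, with bars of 1 SE; the grey band is the 1st to 99th percentile of all genes tested. Most members lie around the dotted line at a slope of 1 and outside the band, and Nebl, the 3 oxidase subunits and Corin lie inside it.

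Which libraries carried this variation can be read from the levels. Without PM, replicate 5 of the OVA arm, at 105.3 CPM of Myh6 and 776.2 CPM of the sum, and replicates 5 and 6 of the saline arm, at 97.7 and 98.1 CPM of Myh6, were the high ones. Replicate 4 of the OVA arm, at 11.01 CPM of Myh6 and 106.6 CPM of the sum, and replicate 3 of the saline arm, at 20.1 CPM of Myh6, were the low ones. Both stood high in Msln, the mesothelial marker mesothelin, at 355.7 CPM in OVA replicate 4 and 318.2 CPM in saline replicate 3, as did saline replicate 4 at 395.3 CPM with 30.7 CPM of Myh6. The other libraries without PM had 45.5 to 76.9 CPM of Msln in OVA and 55.3 to 95.4 CPM in saline. With PM the range of Myh6 was 12.3 to 26.5 CPM in OVA and 19.2 to 32.3 CPM in saline, so these 10 libraries carried little of the range. Fitted within the 12 libraries without PM alone, an alternative added after the data were seen, 26 of 29 members passed with a median slope of 1.004. Fitted within the 10 libraries given PM, 0 of 25 members passed in edgeR's test and 0 genes of the whole table did, while 14 of the 25 members had an unadjusted p under 0.05, against 4.08% of all genes. The member median there was 1.11, with Pln at 2.65 ± 0.48 and Mb at 2.41 ± 0.45 (± SE) at the top, Actc1 at 0.10 ± 0.27 and Corin at -0.64 ± 0.43 at the low end.

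**Figure D4:**
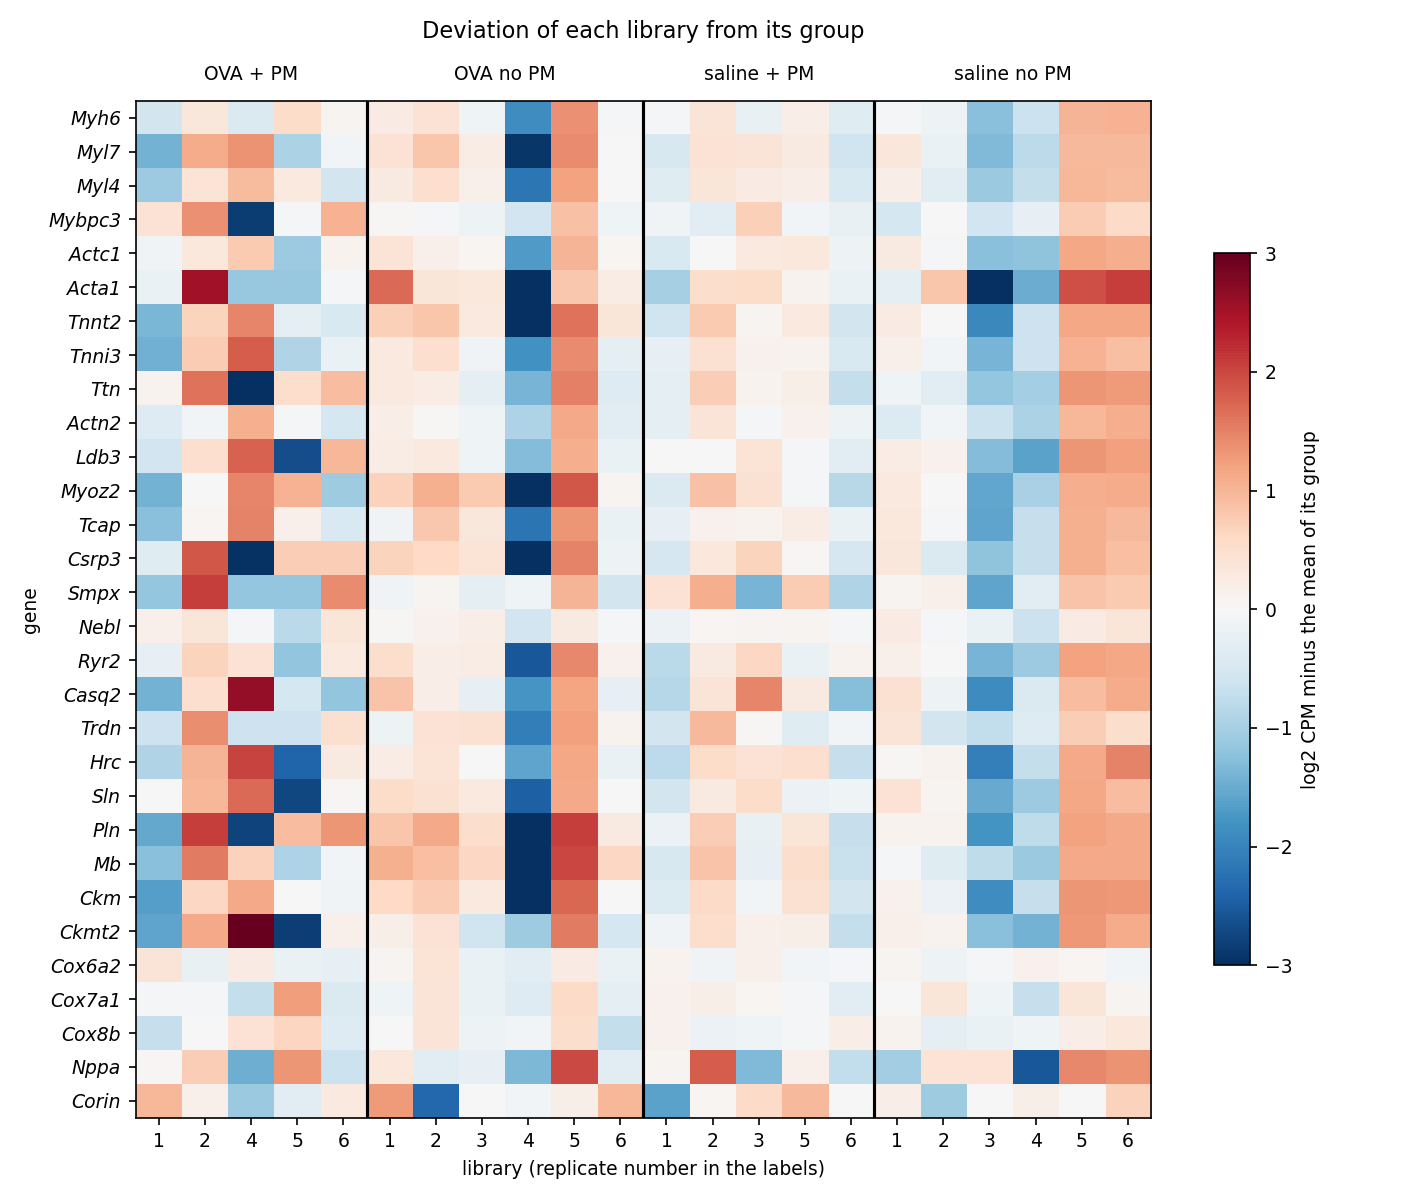
Deviation of log2 CPM of each member in each library from the mean of its group (red, above; blue, below), with the libraries in their groups along the x axis. The columns of OVA without PM replicate 5 and saline without PM replicates 5 and 6 are red over most genes, that of OVA without PM replicate 4 is blue, and Corin, Nebl and the oxidase subunits break the pattern.

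For 7 genes the relation to Myh6 was also taken as a correlation of deviations from the group means over 22 libraries, with permutation tests within groups adjusted over the 7 relations. Pln followed Myh6 most closely (Pearson r = 0.881, two-sided adjusted p = 7e-05 from the smallest p that the permutations can give; Spearman rho = 0.904, adjusted p = 7e-05), and its r was 0.887 without the 2 libraries farthest from the median of Myh6, saline without PM replicate 6 and OVA without PM replicate 5. Tnnt2 had r = 0.843 (adjusted p = 0.000665, permutation test) and rho = 0.717 (adjusted p = 0.00254), with r = 0.822 without those 2 libraries. Myl7 had r = 0.783 (adjusted p = 0.00119, permutation test) and rho = 0.656 (adjusted p = 0.00711), with r = 0.739 without them. Nppa had r = 0.678 (adjusted p = 0.00246, permutation test) and rho = 0.706 (adjusted p = 0.00254), with r = 0.557 without them. The relation was looser for Sln, with r = 0.552 (adjusted p = 0.0237, permutation test), rho = 0.484 (adjusted p = 0.0393) and r = 0.475 without them (adjusted p = 0.0727, permutation test). For Cox8b r was 0.447 (adjusted p = 0.0556, permutation test), rho was 0.505 (adjusted p = 0.0367) and r was 0.282 without them (adjusted p = 0.253, permutation test). Of the 7 Pearson correlations, those of Sln and Cox8b did not pass without those 2 libraries, and that of Cox8b had not passed with all 22 either. The highest adjusted p of the other 5 without those 2 libraries was 0.0171 in the permutation test. Acta2, the actin of smooth muscle, taken as the comparison, had r = 0.793 (adjusted p = 0.00119, permutation test), rho = 0.621 (adjusted p = 0.0102) and r = 0.730 without them. Among the 30 passing members the median of the 435 pairwise r was 0.555, ranging from -0.43 to 0.985, and it was 0.695 without Corin, Nebl and the 3 oxidase subunits. The same median was 0.015 over 1 in 10 of the genes tested. The members share libraries and depth, and these pairwise values are a description.

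**Figure D5:**
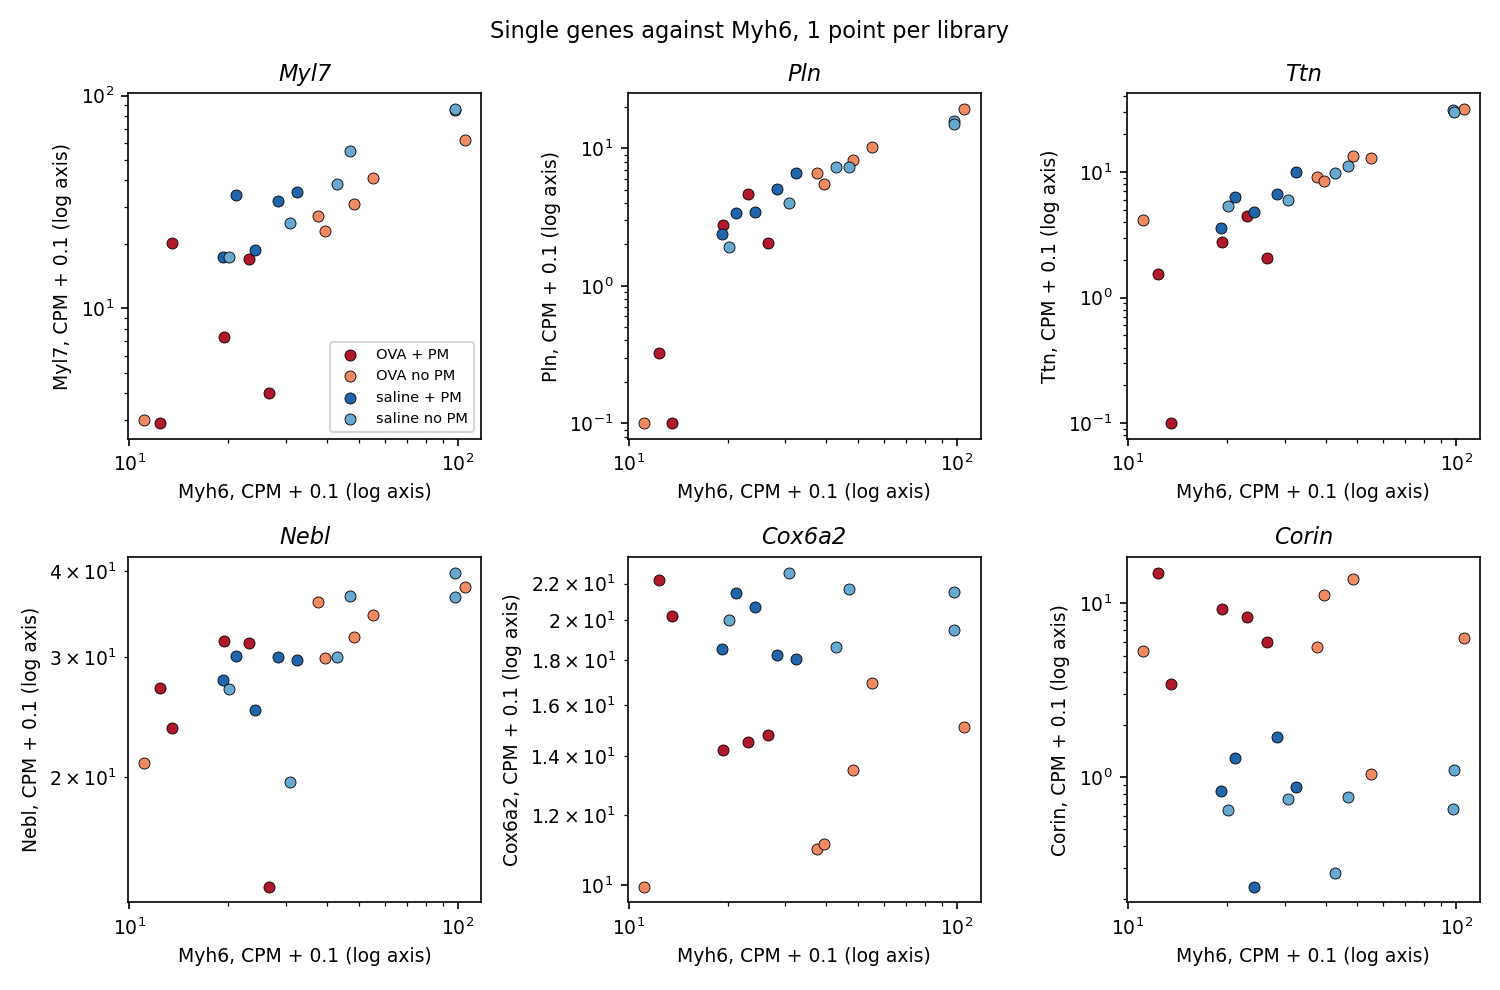
Level of 6 members against Myh6 in CPM + 0.1 on log axes, 1 point per library, coloured by group. Myl7, Pln and Ttn climb with Myh6 across libraries, Nebl and Cox6a2 stay nearly level, and Corin separates by arm and not by Myh6.

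Genes of other lung tissues varied with Myh6 as well, against 18.1% of all genes tested that rose with it and 16.4% that fell. All 12 smooth muscle markers rose with Myh6, with a median slope of 0.51 and Acta2 at 0.52 ± 0.09 SE, adjusted p = 9.79e-05. All 7 mesothelial markers fell with it, with a median slope of -0.80 and Msln at -0.98 ± 0.14 SE, adjusted p = 1.18e-05. Of the white fat markers 6 of 7 tested rose, with a median slope of 0.82, nearer that of the members, and Plin1, a coat protein of lipid droplets, at 0.91 ± 0.18 SE, adjusted p = 0.00032. The summed level of the 8 listed fat markers ran from 20.9 to 80.5 CPM in OVA with PM, 26.1 to 96.4 CPM in OVA without PM, 47.5 to 111.9 CPM in saline with PM and 58.1 to 79.6 CPM in saline without PM, and 1 of 7 was lower with PM over both arms. All 4 endocardial markers rose, with a median slope of 0.21, and 3 of 4 were lower with PM over both arms. The part of any of these tissues in the members' variation was not tested. Among related genes outside the 32, 13 of 21 tested sarcomere genes rose with Myh6 and 17 of 21 were lower with PM over both arms, where 19% of all genes were lower and 15.4% higher. Of calcium and ion channel genes, 10 of 16 rose with Myh6 and 11 of 16 were lower with PM, with 1 higher. Of muscle metabolism genes, 8 of 17 rose and 5 fell with Myh6, and of heart transcription factors 5 of 9 rose. Tnnc1, the calcium-binding troponin of heart and slow muscle, had a slope of 0.997 ± 0.13 SE, adjusted p = 6.69e-06 and Kcnj5, a subunit of the atrial acetylcholine-gated potassium channel, 1.33 ± 0.22 SE, adjusted p = 7.84e-05. Myh7, the slow and ventricular heavy chain and neighbour of Myh6, did not follow it, with a slope of 0.07 ± 0.04 SE, adjusted p = 0.165 and levels of 45.1 to 56.0 CPM in OVA with PM, 47.5 to 65.1 CPM in OVA without PM, 39.8 to 44.0 CPM in saline with PM and 49.97 to 61.3 CPM in saline without PM.

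With the level of Myh6 added as a covariate to a fit of all 22 libraries, the 4 pairwise comparisons were taken at equal Myh6. This alternative was chosen after the data were seen. The pairwise comparisons above used only the 2 groups compared, so the counts differ in more than the covariate. Without Myh6, the fit of all 4 groups gave 5 members for OVA with PM. For PM, 0 of 29 members passed in either arm by edgeR's test, with 2 in each arm at an unadjusted p under 0.05. Of all genes, 4 passed in the OVA arm, 0.0268% of those tested, and 159 in the saline arm, 1.06%. Myh6 itself fell with PM, so a fall shared with it is taken out, and these counts cannot show whether PM changed the members. For OVA without PM, 7 of 29 members passed, 3 higher, with 17.6% of all genes higher, and 4 lower, with 17.3% of all genes lower, so both shares of the members lay below those of all genes. Corin (3.49 ± 0.51 SE, adjusted p = 6.87e-06), Nppa (1.05 ± 0.36 SE, adjusted p = 0.026) and Mybpc3 (0.86 ± 0.19 SE, adjusted p = 0.000999) were higher, and Cox6a2, Cox8b, Myl7 and Trdn were lower. For OVA with PM, 10 of 29 passed, 1 higher, with 12.6% of all genes higher, and 9 lower, with 8.83% of all genes lower. Corin was higher (3.26 ± 0.56 SE, adjusted p = 0.000153), and Ckm, Cox8b, Myl4, Myl7 (-1.23 ± 0.25 SE, adjusted p = 0.000972), Myoz2, Sln (-1.43 ± 0.30 SE, adjusted p = 0.00137), Tnni3, Trdn and Ttn were lower. The members called for OVA at equal Myh6 at both PM levels were Corin, higher, and Cox8b, Myl7 and Trdn, lower.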

How the data were processed

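RNA of 22 mouse lung libraries was measured by stranded, single-end mRNA sequencing of 75 cycles from 400 ng of total RNA, with 24 libraries per run, per the labels' protocols. The submitters' processing notes name bcl2fastq and the build mm10. Which aligner and counter were run is not given in the sources used here. As deposited by the authors, the values were raw read counts per gene, and they were joined over the tables (12 columns present in 2 tables were identical in all 12 cases), and 16 of 24421 rows whose names had turned into dates (0.152 to 0.195% of counts) were left out. Per the file headers, the authors' own comparisons hold log2 fold changes and adjusted p-values, which were used only for counts of members in their tables. Their normalised values were not used here.

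Genes were filtered (filterByExpr, minimum count 10, minimum total 15), scaled by TMM and tested with the quasi-likelihood F test of edgeR 4.0.16 in R 4.3.3 on all genes that passed, with Benjamini-Hochberg adjustment at 0.05 per comparison. An SE was obtained from each log2 fold change and its F statistic. Levels are TMM-scaled CPM, and log2 CPM has a prior count of 2. The script was tested on simulated data. Positions, lengths and gene names came from GENCODE M21, in which 23361 names were found, and promoters from RefSeq. No 2 libraries were near copies (lowest chi-square per degree of freedom 2.63 over 50 replicate pairs). The members, gene lists and tests were chosen with earlier results of these data known. The named genes were all 32 members, of each other list up to 3 of the highest mean CPM and those called, and, outside all lists, the 10 genes most and the 5 least correlated with Myh6; some of these are not reported here. Alternatives were DESeq2 1.42.0, library totals in place of TMM and other filters. A length and GC offset, a replicate block and all 4 groups in 1 fit were used as well. The shallow libraries, and each library in turn, were also left out. Added after the data were seen were Myh6 as covariate in a fit of all 22 libraries and the 2 PM levels fitted apart. So was the length and GC offset for the relation to Myh6.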

Additional observations from a re-analysis of the deposited data

Results flagged for a closer look

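For the 29 members that averaged 1 CPM or more and for the sum of all 32, in the 4 groups of 5 or 6 libraries, 120 sets of values were examined with Dixon's test for a single library far from the others of its group, and 14 were found, all on the high side. Chance alone gives about 1 in 20 for independent sets of normally distributed values. These were CPM on a linear scale, of genes that vary together in the same libraries, so the 14 cannot be set against that rate. OVA without PM replicate 5, the library with the highest Myh6, stood apart in 6 of them: Ttn at 31.4 CPM, Actn2 at 12.7, Smpx at 4.03, Ckmt2 at 11.6, Nppa at 7.32 and Mybpc3 at 6.59 CPM. OVA with PM replicate 4, the library of 0.302 M counts, stood apart for Tcap at 20.1 CPM, Actn2 at 6.70, Casq2 at 10.1 and Ckmt2 at 10.1 CPM, values that rest on 2 to 6 counts each. The other shallow library of that group, replicate 5, was high for Cox7a1 at 13.7 CPM. The remaining ones were Acta1 at 1.89 CPM in OVA with PM replicate 2, Mybpc3 at 2.97 CPM in saline with PM replicate 3 and Nppa at 1.27 CPM in saline with PM replicate 2.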

How the results depend on the processing

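The fall of the members with PM over both arms and their relation to Myh6 held in number: leaving out each of the 22 libraries gave 24 to 26 and 25 to 28 members passing, and the other settings 23 to 26 and, apart from the fit within the PM libraries, up to 28. Over the fits that left out a library, 4155 to 6138 genes passed for PM over both arms and 3526 to 5677 for the relation to Myh6. With 1 arm or 1 PM level the counts moved, and the cause was not tested. In the saline arm, members lower with PM numbered 3 with DESeq2, 16 with a replicate block and 0 with Myh6 as covariate (genes: 3193 and 159 in the last 2), and with that covariate Csrp3, Ttn and Myl7 turned to log2 fold changes of 0.0854, 0.102 and 0.271. In the OVA arm they numbered 3 with DESeq2, 3 with the length and GC offset (188 genes), 22 without the 3 shallow libraries (3472 genes) and 0 with Myh6 as covariate (4 genes), and genes numbered 2054 with library totals and 565 with the replicate block. The genes that DESeq2 called for PM in either arm are not given here. For OVA with PM, members numbered 8 with DESeq2 and 5 in a fit of all 4 groups, while 2598 to 3966 genes passed over the settings that left out no single library. For OVA without PM, Myh6 as covariate gave 7 members and 5223 genes. Genes lower or higher with PM over both arms numbered 3375 with the length and GC offset, and those passing for the difference between arms 24 with DESeq2. For the relation to Myh6, the replicate block gave 1851 genes, and the PM libraries alone 0 members and 0 genes.

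Leaving out each library in turn gave, for OVA without PM, 2 to 4 members, 2554 to 4127 genes and a Myh6 log2 fold change of -0.49 to 0.0756. For PM it gave 0 to 22 members and 490 to 4112 genes in the saline arm, and 0 to 23 members and 0 to 3396 genes in the OVA arm. For OVA with PM it gave 5 to 16 members and 2259 to 3483 genes. For OVA over both PM levels it gave 6 to 17 members and 5146 to 6038 genes. For the difference between arms it gave 8 to 27 genes and a Myh6 difference of -0.49 to 0.0728. The same-numbered libraries did not vary together throughout (correlations of -0.161 to 0.569), so the replicate block is given here only.

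Depth limits the OVA arm most, since 3 of its libraries hold under 2 M counts, and a count of 0 in the shallowest allows a level of up to 9.92 CPM. Intervals of counting error do not cover differences between animals. The p-values rest on 5 or 6 libraries per group.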

Other observations

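Genes outside the 32 members also rose steeply with Myh6 within groups. A slope of at least 0.8 was reached by 38 such genes, of which 18 belong to a marker or muscle list and 20 to none. Trim54, a ubiquitin ligase of striated muscle, had the steepest slope of the whole table at 1.61 ± 0.23, and Mybphl, a myosin-binding protein of the heart, was at 1.26 ± 0.14 (log2 units per log2 unit of Myh6, ± SE); both were chosen after their values were seen. Of the listed sarcomere genes, Xirp2 was at 1.28 ± 0.20 and Myom2, an M-band protein, at 1.05 ± 0.14. Of the fat markers, Plin4 was at 0.95 ± 0.18 and Plin1 at 0.91 ± 0.18.

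Among genes in no list, those close to Myh6 by Pearson r of within-group deviations over the 22 libraries included S1pr3, a receptor of sphingosine-1-phosphate (r = 0.934), Slco2a1, the prostaglandin transporter (0.932), Tbx4, a transcription factor of lung mesenchyme (0.928), Hspg2, perlecan (0.928), Cacna1d, a calcium channel subunit (0.918), Pcdhgc3 (0.914), Pygm, the muscle glycogen phosphorylase (0.913), Adcy8 (0.909) and Zc3h7b (0.907). Their slopes ran from 0.31 for S1pr3 to 0.71 for Hspg2. The most opposed were Plet1 (r = -0.944), Fpr2, a formyl peptide receptor (-0.929), Trf, transferrin (-0.927), Slc31a2 (-0.924) and Tlr2, a receptor of bacterial lipoproteins (-0.920). These r values were picked as the extremes of all genes and describe these libraries only.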
